A study of Mus musculus with 57 samples.

Results

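Apolipoproteins are the protein shell of the particles that carry fat and cholesterol through blood, and the liver makes most of them. The mRNAs of 10 such genes were followed here across 57 mouse livers: Apoa1, Apoa2, Apoa4, Apoa5, Apob, Apoc1, Apoc3, Apoe, Apoh and Apom. They were chosen by name from the 54307 genes of the table. Each of the 10 symbols matched 1 gene identifier, and all 10 passed the filter on low counts in every comparison.

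Livers came from male wild-type (WT) C57BL/6JJcl mice, 6 weeks old, acclimatised for 1 week and fasted for 12 h before a single dosing, and were taken 24 h later. By gavage, 4 mice received alpha-naphthyl isothiocyanate (ANIT), a bile duct toxicant, 6 acetaminophen (APAP), 7 the diamine 4,4'-methylene dianiline (MDA) and 5 thioacetamide (TAA), and 13 controls (Ctrl) received 0.5% methylcellulose. By intraperitoneal injection, 7 mice received CCl4 (carbon tetrachloride) and 4 galactosamine (GAL), an amino sugar that depletes hepatocyte uridine nucleotides, and 2 controls (CIP) received 0.9% saline. By tail vein, 7 mice received concanavalin A (ConA), a lectin that activates T cells, and 2 controls (CIV) received 0.9% saline. The labels name corn oil as a further vehicle without saying for which compound, and no control received it, so compound and vehicle cannot be told apart for a compound given in oil. RNA came from a piece of the outer left lateral lobe of perfused liver, the route controls for injection were only 2 mice each, and each compound was therefore also set against all 17 vehicle livers.

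Lipoproteins differ in the apolipoproteins they carry. Apob is the scaffold of very-low-density and low-density lipoproteins and stays with its particle from assembly to uptake. Apoa1 and Apoa2 are the main proteins of high-density lipoprotein (HDL), the carrier of cholesterol back to the liver, and Apom binds sphingosine-1-phosphate on HDL. Apoa5 promotes and Apoc3 restrains the clearance of triglyceride by lipoprotein lipase, while Apoe is the ligand by which remnant particles are taken up and Apoc1 hinders that uptake. Apoa4 is made in gut and, on fasting or steatosis, in mouse liver. Apoh (beta-2-glycoprotein I) binds phospholipid and circulates partly on lipoproteins.

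Several of these genes are neighbours. In the GENCODE M21 annotation (GRCm38), Apoa1, Apoc3, Apoa4 and Apoa5 lie in a cluster on chromosome 9, with start sites at 46228580 for Apoa1 (plus strand), 46235636 for Apoc3 (minus), 46240696 for Apoa4 (plus) and 46268633 for Apoa5 (plus). Apoe and Apoc1 lie together on the minus strand of chromosome 7, starting at 19699188 and 19692660. Apoa2 is on chromosome 1, Apoh on 11, Apob on 12 and Apom on 17. The table lists them by Ensembl identifier, for example ENSMUSG00000032083.9 for Apoa1 and ENSMUSG00000002985.17 for Apoe. The stretch before the start site is shown for 3 genes of the chromosome 9 cluster, because these neighbours moved differently from each other, and for Apoe, the most abundant of the 10. Sequences and coordinates are those of RefSeq on GRCm38.p6, an older build than the GRCm39 named in the submitters' processing notes. Each runs 5′ to 3′ on the gene's strand, the minus strand for Apoe and the plus strand for the others, and stops before the start site of either annotation. Capitals mark motif matches.
Apoa1 (chr9:46228380-46228579): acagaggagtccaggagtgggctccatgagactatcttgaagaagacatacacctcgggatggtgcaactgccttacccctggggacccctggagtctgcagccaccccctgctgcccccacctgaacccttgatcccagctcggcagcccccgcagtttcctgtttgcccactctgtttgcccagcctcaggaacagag
Apoa4 (chr9:46240594-46240695): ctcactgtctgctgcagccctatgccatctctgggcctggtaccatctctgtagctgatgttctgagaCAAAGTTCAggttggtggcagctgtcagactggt
Apoa5 (chr9:46268383-46268632): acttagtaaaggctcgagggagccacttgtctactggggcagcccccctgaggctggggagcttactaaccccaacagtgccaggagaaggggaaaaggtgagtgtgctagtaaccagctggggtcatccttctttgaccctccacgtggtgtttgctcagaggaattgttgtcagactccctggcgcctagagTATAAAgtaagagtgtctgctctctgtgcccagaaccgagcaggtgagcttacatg
Apoe (chr7:19699189-19699438): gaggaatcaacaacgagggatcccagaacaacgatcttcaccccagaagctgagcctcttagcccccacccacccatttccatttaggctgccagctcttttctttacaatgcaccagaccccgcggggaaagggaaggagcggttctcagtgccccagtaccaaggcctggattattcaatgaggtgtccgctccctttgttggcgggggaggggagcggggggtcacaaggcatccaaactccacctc

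RefSeq windows were found for 8 of the 10 genes, all except Apoc1 and Apoc3. In the 250 bases before the RefSeq start of each, 5 motifs were searched on both strands. An HNF4-type element (CAAAGTNCA), which binds the hepatocyte nuclear receptor HNF4, matched in Apoa4 only, from -182 to -174 relative to the RefSeq start, against 1.19% of 32851 promoters of the same length. The nuclear receptor half-site AGGTCA matched in Apoh (14% of promoters), and the forkhead motif TGTTTAC in Apoa2 and Apoh (3.17%). For Apoh the RefSeq start lies 51943 bases from the start in GENCODE M21, so the annotations disagree on where its promoter is. The distance is 148 bases for Apoa4 and 29 for Apob, so the positions of their matches also depend on the annotation. The letters TATAAA matched in Apoa2 (-212 to -207), Apoa5 (-56 to -51) and Apob (-60 to -55), against 12.4% of promoters. The HNF1 half-site GTTAAT matched in none of the 8 (6.43%). These are matches of letters and not shown to be sites in use.

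The order of mRNA levels in vehicle livers was Apoe, Apoa2, Apoa1, Apoc1, Apoc3, Apoh, Apoa4, Apoa5, Apom and Apob. Levels are given in CPM, the estimated counts of a gene per library of fixed size. The deposited values behave as values per transcript length, so genes can be compared, and libraries were scaled by TMM, a factor that makes the middle of the genes comparable between libraries. Over the 17 vehicle livers, Apoe averaged 19553 ± 5004 (SD, n = 17) CPM and Apoa2 18266 ± 2356 (SD, n = 17), so the first and second differed by less than their spread. Apoa1 averaged 10472 ± 2085 (SD, n = 17) and Apoc1 10099 ± 1927 (SD, n = 17), again closer than their spread, and Apoc3 6934 ± 1305 (SD, n = 17). Apoh stood alone at 2559 ± 442 (SD, n = 17). The lower end held Apoa4 at 1080.2 ± 786 (SD, n = 17), Apoa5 at 756 ± 186 (SD, n = 17), Apom at 389 ± 53.1 (SD, n = 17) and Apob at 386 ± 195 (SD, n = 17), of which only Apom had a narrow spread. Together the 10 genes took up 6.80% ± 1.14 (SD, n = 17) of the estimated counts of a vehicle library.

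**Figure D1:**
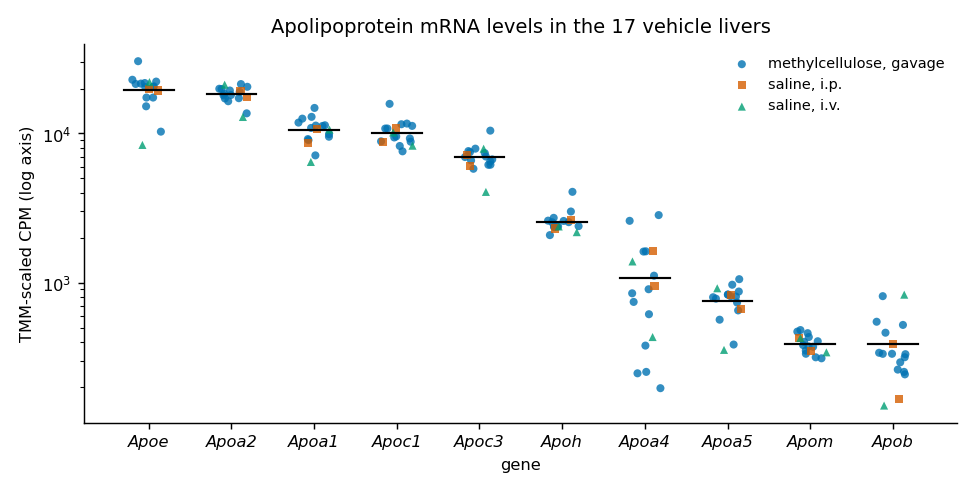
TMM-scaled CPM of the 10 apolipoprotein genes in the 17 vehicle livers, on a log axis, 1 point per liver with the vehicle as marker and the mean as a bar. Apoe, at a mean of 19553 CPM, lies far above Apob at 386, and Apoa4 spreads from 196 to 2836 CPM, more widely than its neighbours in the order.

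Libraries held 13826343 to 35075809 estimated counts, of which 5.115% to 39.31% were mitochondrial. The highest shares were in ConA, at 14.6% to 39.3%, against 7.48% to 21.8% in Ctrl, and CIV 8 had 25.4% against 6.79% in CIV 7. Their part in the ConA differences was not tested. Hepatocyte markers were abundant in every group, with a summed level of 50356 to 108006 CPM for 7 markers in vehicle livers, so the tissue label held. No apolipoprotein was called between CIP and Ctrl or between CIV and Ctrl, by edgeR or by DESeq2, where edgeR called 0.0131% of all genes for CIP, all higher, and 0.0263% for CIV, 0.0197% higher and 0.00658% lower. At an unadjusted p under 0.05, 0 and 0 of the 10 differed, where 3.75% and 3.82% of all genes did. The intravenous control CIV 8 stood apart from CIV 7: Apoe read 8380.1 against 22126 CPM, Apoa1 6442 against 10618, and Apob 830.0 against 149.8.

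Calls against the route vehicle fell into 3 patterns. With CCl4 and GAL nearly the whole family fell, by as much as 2.32 on the log2 scale for Apoa5 with GAL, although with GAL the extent depended on the scaling. With the 4 gavage compounds changes went both ways, Apoa1, Apoa5 or Apob rising while Apoa2, Apoc1, Apoc3, Apoh or Apom fell. With ConA only Apom passed the test against its 2 route controls with TMM scaling, and 5 members did by library total. Differences are log2 fold changes ± standard error (SE), treated minus control, and a gene is called at a Benjamini-Hochberg adjusted p under 0.05 over all genes in edgeR's quasi-likelihood test.

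Against the route vehicle, 10 of 10 members were called lower with GAL, where 28.5% of all genes were called and 15.7% were called lower. With CCl4 8 of 10 were called lower (33.5% of all genes called, 15.6% lower), all but Apoa4 and Apob. With APAP 5 were called (31.8% of all genes), 1 higher and 4 lower, where 17.3% of genes were higher and 14.6% lower. With MDA 4 were called (33.8%), 2 in each direction (17.4% of genes higher, 16.4% lower). With TAA 4 were called (50.5%), 1 higher and 3 lower (26.4% and 24% of genes). ANIT had 2 called (28.2%), 1 in each direction (14% and 14.2%), and ConA 1, lower (34.2%, 17.3% lower). With TMM scaling the members' share thus stood far above that of all genes for CCl4 and GAL, and below it for ANIT, TAA and ConA. The median log2 difference of the 10 was -1.43 with CCl4 and -1.31 with GAL, against 0.10 and 0.08 over all genes, with TMM scaling, and between -0.38 and 0.12 with the other 5 compounds.

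Against all 17 vehicle livers 10 members were called with GAL, all lower (52.5% of all genes called, 25.1% of genes higher, 27.5% lower), and 8 with CCl4, all lower (53.3%, 26.3% of genes higher, 27% lower). With ConA 6 were called, 3 in each direction (68.1%, 34% of genes higher, 34.1% lower). With MDA 3 were higher and 2 lower (34.2%, 17.2% of genes higher, 17.1% lower), and with TAA 2 were higher and 3 lower (49.7%, 25.2% of genes higher, 24.5% lower). With APAP 1 was higher and 3 were lower (33.4%, 18.1% of genes higher, 15.3% lower), and with ANIT 1 was higher and 1 lower (28%, 13.5% of genes higher, 14.5% lower). Without CIV 8 the ConA count was 7, Apoa5 being added at 0.32, where 69.2% of all genes were called. By library total 6 members were also called with ConA but not the same 6: Apoa1 (-0.15), Apoa4 (0.38) and Apob (0.04) were no longer called, and Apoa2 (-0.84), Apoe (-0.62) and Apoh (-0.92) were called lower beside Apoc1, Apoc3 and Apom, where 67.8% of all genes were called and 50.8% called lower. With TMM scaling the ConA count thus grew from 1 to 6, at a share below that of all genes, and the others moved by at most 1. These comparisons share their control livers, as do those with the same route vehicle, and are not independent of each other.

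**Figure D2:**
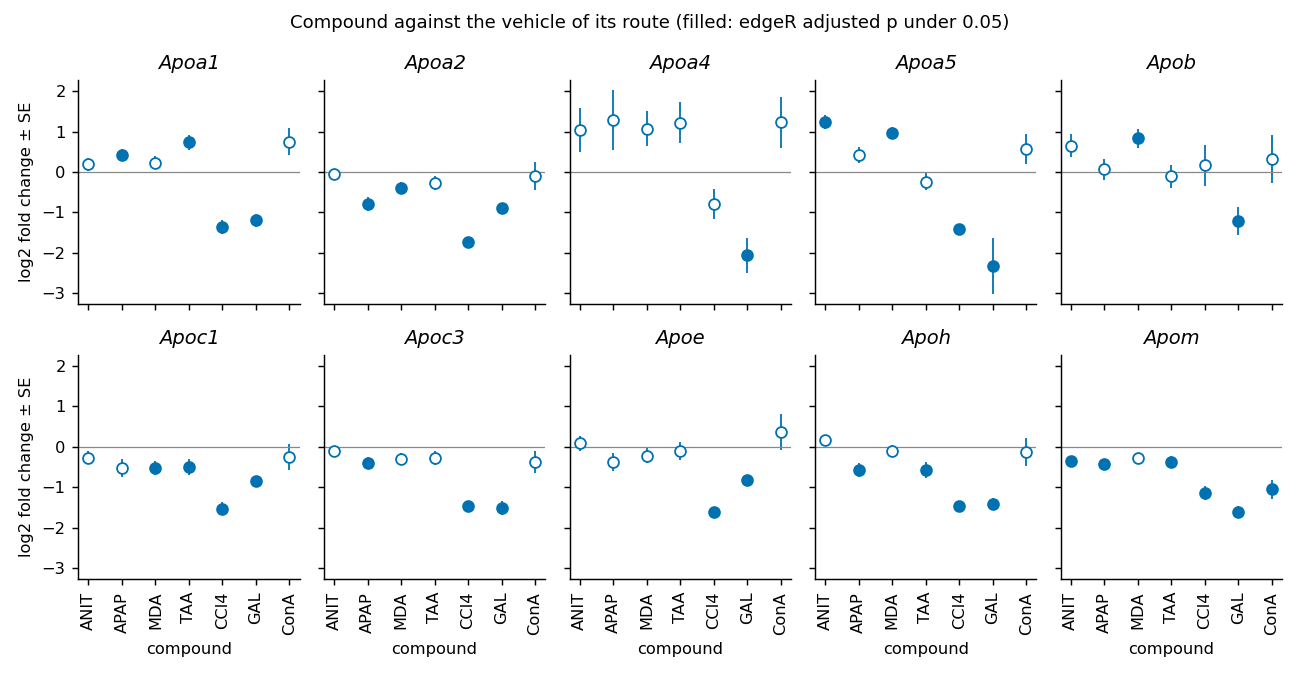
Log2 fold change against the vehicle of the same route for each of the 10 genes, 7 compounds on the x axis; bars are the SE and filled points have an edgeR adjusted p under 0.05. With TMM scaling all filled points of CCl4 and GAL lie between -0.82 and -2.32 (by library total 3 of the 10 would be filled with GAL), whereas Apoa5 is filled above 0 with ANIT and MDA and below 0 with CCl4 and GAL.

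How much of these falls is seen depends on the scaling. TMM centres the bulk of the genes, whereas dividing by the library total leaves the median gene 0.83 above 0 on the log2 scale with GAL against all vehicle livers, 0.52 above with CCl4 and at -0.61 with ConA. Of all genes called between GAL and CIP, 1981 were higher and 2435 lower with TMM scaling, and 5501 higher and 841 lower by library total. For CCl4 against CIP these were 2759 and 2393, and 4561 and 1097. For ConA against CIV they were 2381 and 2446, and 1100 and 3734. The shift was -0.26 with ANIT and 0.20 with APAP, and within 0.1 with MDA and TAA. By library total the 10 genes made up 3.21% ± 0.244 (SD, n = 7) of a CCl4 library, 4.3% ± 0.763 (SD, n = 7) of a ConA library and 5.88% ± 0.441 (SD, n = 4) of a GAL library, against 6.80% ± 1.14 (SD, n = 17) in vehicle. Without mitochondrial genes in the total the share was 5.71% ± 0.902 (SD, n = 7) with ConA against 7.92% ± 1.08 (SD, n = 17) in vehicle. Member counts by library total are read against the share of all genes under that scaling. For CCl4 the same 8 genes were called lower with either scaling, where by library total 36.8% of genes were called and 7.14% called lower against CIP (62.5% and 12.2% against all vehicle livers). For GAL against CIP only Apoc3 (-0.74), Apoh (-0.64) and Apom (-0.84) stayed called by library total (40.9% of genes called, 5.42% lower). Against all vehicle livers 6 did (66.2%, 11.5% lower), while Apoa2 (-0.08), Apoc1 (-0.06) and Apoe (0.01) lay near 0. With ConA against CIV 5 were called by library total, all lower (34.2%, 26.4% lower). With the gavage compounds by library total, 3 members were called with ANIT (24.7% of genes), 5 with APAP (29%), 6 with MDA (26%) and 6 with TAA (44.9%), and the genes that entered or left are given with each gene. Statements on single livers and their overlap refer to TMM-scaled values. In bulk tissue, fewer cells of a type and less RNA per cell cannot be told apart.

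**Figure D3:**
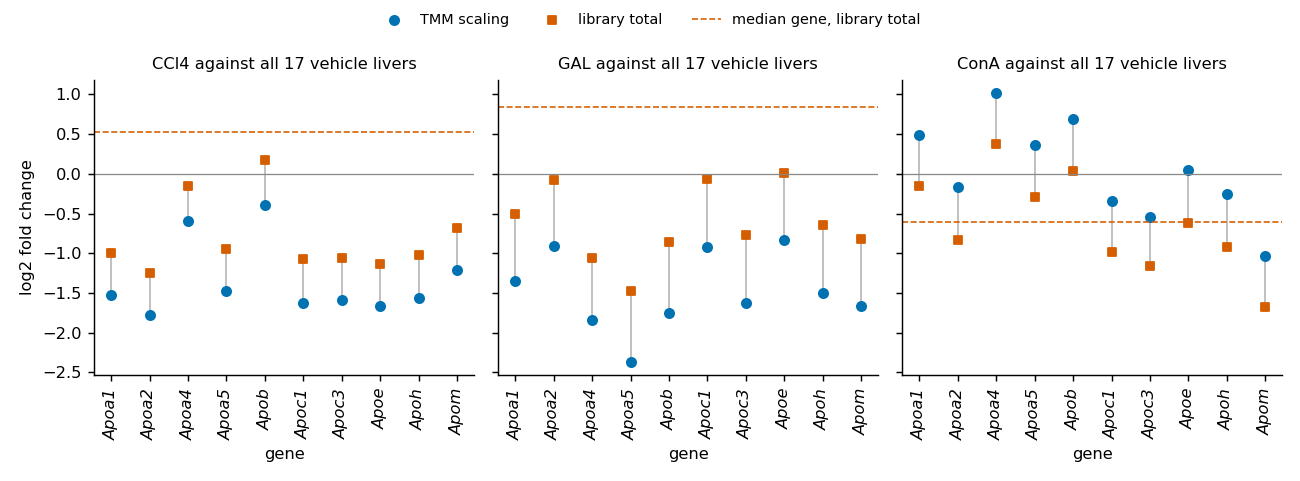
Log2 fold change against all 17 vehicle livers for CCl4, GAL and ConA with TMM scaling (circles) and by library total (squares); the dashed line is the median gene by library total. By library total Apoe with GAL moves from -0.84 to 0.01 and Apoa1 with ConA from 0.49 to -0.15, while the 8 genes called lower with CCl4 stay at -0.69 or below.

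In the values that follow, livers of a group of up to 5 are given in order of mouse number, and larger groups by their lowest, median and highest liver. Apoa1, the main HDL protein, rose with TAA and APAP and fell with CCl4 and GAL. Ctrl livers had 7132, 11229 and 14837 CPM. The 5 TAA livers read 28856, 16237, 12881, 12842 and 15896, of which 3 lay above every control and TAA 1 far above the rest, and the difference was 0.73 ± 0.19 (adjusted p = 0.00350). The 6 APAP livers had 11113, 13656 and 19073, and only APAP 1 exceeded the Ctrl range (0.41 ± 0.15, adjusted p = 0.0437). This call was lost when any of APAP 1, 4, 6, 8 or 11 was left out (differences of 0.30 to 0.43). ANIT livers read 13546, 13482, 11596 and 11006 (0.19 ± 0.15, adjusted p = 0.388) and MDA livers 9128, 11858 and 19654 (0.23 ± 0.16, adjusted p = 0.272), both inside or overlapping the control range.

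With CCl4 and GAL Apoa1 was lower without overlap. CIP livers read 8599 and 10676 CPM, GAL livers 4952, 4112, 3644 and 4063 and CCl4 livers 2533, 3695 and 4280.1. Differences were -1.20 ± 0.15 (adjusted p = 0.00394) with GAL (by library total -0.42 and not called) and -1.36 ± 0.17 (adjusted p = 0.000344) with CCl4, and every treated liver lay below all 17 vehicle livers. ConA livers had 10279, 14074 and 18514, above both CIV livers in 6 of 7 mice but with a difference of 0.75 ± 0.33 (adjusted p = 0.107). Against all vehicle livers the ConA difference was 0.49 ± 0.14 (adjusted p = 0.00390) with TMM scaling and -0.15 by library total.

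Apoa2, the second HDL protein, fell with APAP, MDA, CCl4 and GAL and rose with none. Ctrl livers had 13649, 18483 and 21441 CPM. APAP livers had 6948, 8732 and 17454: 5 of the 6 lay below every Ctrl liver and APAP 1 within the range (-0.80 ± 0.17, adjusted p = 0.00158). In MDA, 18663 and 20584 in mice 1 and 2 lay within the Ctrl range, while mice 3, 4, 7 and 12 lay below the Ctrl range. The MDA difference of -0.38 ± 0.15 (adjusted p = 0.0494) was lost without any of MDA 3, 4, 7, 8 or 12 (-0.31 to -0.38). TAA livers read 22984, 12968, 11869.5, 11408 and 13565 (-0.28 ± 0.17, adjusted p = 0.186), and without TAA 1 the difference was called at -0.53. Apoa1 and Apoa2 were thus called in opposite directions with APAP.

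With CCl4 the estimate for Apoa2 was the largest of the 10: CCl4 livers had 4225, 5503 and 5932 CPM against 17642 and 19367 in CIP (-1.74 ± 0.11, adjusted p = 1.01e-05). GAL livers read 9541, 10515, 9181 and 10363 (-0.90 ± 0.12, adjusted p = 0.00446), also below both CIP livers, although by library total the GAL difference was -0.13 and not called. With TMM scaling ANIT (-0.06) and ConA (-0.11) were not called. By library total Apoa2 was also called lower with TAA (-0.33) and with ConA against CIV (-0.80).

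Apom, the sphingosine-1-phosphate carrier, fell with 6 of the 7 compounds with TMM scaling, all but MDA, against at most 4 for any other member. By library total it also fell with 6, but the exception was APAP (-0.29, adjusted p = 0.140) and MDA was called (-0.37, 0.0318), and Apoc1 fell with 6 as well. Ctrl livers had 311, 381 and 481 CPM. In ConA, 135, 171 and 229 lay below both CIV livers, 425 and 341, and below all 17 vehicle livers. The ConA difference was -1.05 ± 0.23 (adjusted p = 0.00563), and against all vehicle livers -1.04 ± 0.11 (adjusted p = 7.08e-09). Leaving out CIV 7 took it to -0.85 and ended the call against CIV (the lone control left being assumed to vary like the treated livers), while without CIV 8 it was -1.23 and called. GAL livers read 138, 118, 122 and 124 (-1.62 ± 0.14, adjusted p = 0.00217) and CCl4 livers 138, 169.9 and 229 (-1.15 ± 0.17, adjusted p = 0.000722), again without overlap with any vehicle liver.

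With gavage compounds the Apom falls were small. APAP livers had 253, 286 and 313 CPM (-0.43 ± 0.11, adjusted p = 0.00414), ANIT livers read 374, 283, 311 and 252 (-0.35 ± 0.13, adjusted p = 0.0485) and TAA livers 429, 270.3, 226, 227 and 288 (-0.38 ± 0.15, adjusted p = 0.0425). The ANIT call was lost without ANIT 2, 3 or 4 (-0.27 to -0.36) and the TAA call without TAA 3, 6, 7 or 8 (-0.30 to -0.37). MDA livers had 261, 304 and 492.7 (-0.28 ± 0.12, adjusted p = 0.0839), MDA 2 being the highest, and without it the difference was called at -0.41.

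Apoa5, the promoter of triglyceride clearance, rose with ANIT and MDA and fell with CCl4 and GAL. Ctrl livers had 384, 806 and 1054 CPM. The 4 ANIT livers read 1929, 1685, 1481 and 2233 and the 7 MDA livers had 1218, 1477 and 1854, so that every ANIT and MDA liver exceeded every vehicle liver. Apoa5 rose by 1.24 ± 0.18 (adjusted p = 6.46e-05) with ANIT and by 0.96 ± 0.14 (adjusted p = 2.57e-05) with MDA. APAP livers had 607, 951 and 1598, with APAP 1, 8 and 11 above the control range (0.43 ± 0.20, adjusted p = 0.108). Without APAP 2 the APAP difference was called at 0.54, and by library total at 0.58. TAA livers read 981, 724, 479, 577 and 391, within the control range (-0.24 ± 0.21, adjusted p = 0.363).

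Both intraperitoneal compounds lowered Apoa5. CIP livers read 821 and 667 CPM. CCl4 livers were tightly grouped at 243, 275 and 303 (-1.40 ± 0.12, adjusted p = 3.58e-05), whereas the 4 GAL livers read 351, 78.2, 52.6 and 121, a wide spread with GAL 2 the highest. The GAL difference of -2.32 ± 0.70 (adjusted p = 0.0487) was lost without CIP 7, CIP 8, GAL 4, GAL 7 or GAL 8 (-2.03 to -2.52), but all 4 livers lay below all 17 vehicle livers, of which CIV 8 was the lowest at 354 (-2.37 ± 0.38, adjusted p = 1.76e-05). By library total the GAL difference was -1.51 against CIP, not called, and -1.48 against all vehicle livers, called. ConA livers had 631, 874 and 1269 (0.57 ± 0.37, adjusted p = 0.254 against CIV, 0.37 ± 0.17, adjusted p = 0.0515 against all vehicle livers). Against CIV 8 alone, with CIV 7 left out, the ConA difference was called at 1.46.

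Among the gavage compounds themselves, with no control involved, Apoa5 was the only member called by edgeR's F test of the 4 groups with TMM scaling (adjusted p = 0.00102, 29.5% of all genes called). By library total 3 members were called, Apoa5, Apoa1 (adjusted p = 0.00570) and Apoh (0.0449), where 26.2% of genes were. DESeq2 also called 3, Apoa5, Apob (adjusted p = 0.0291) and Apoh (0.0490), where it called 36.1% of genes. In the pairwise contrasts of that fit, Apoa5 was higher with ANIT than with TAA by 1.51 ± 0.27 (adjusted p = 0.000690, 21.6% of genes called) and than with APAP by 0.83 ± 0.25 (0.0358, 13.2%). It was higher with MDA than with TAA by 1.23 ± 0.24 (0.00108, 24.3%). Between ANIT and MDA edgeR called 0 of the 10 (0% of all genes), with 0 at an unadjusted p under 0.05 (8.3% of all genes), and the Apoa5 difference was 0.29 ± 0.25. It also called 0 members between APAP and MDA (13.1% of genes) and between APAP and TAA (5.98%), with 2 and 1 at an unadjusted p under 0.05 (27.8% and 21.9% of all genes), where the Apoa5 differences were -0.54 ± 0.22 and 0.69 ± 0.24.

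Apoa4, the fasting-responsive member, varied widely within groups. In Ctrl its level differed between ranges of mouse numbers. Mice 1 to 4 read 252, 247, 742 and 196 CPM, and mice 7, 8, 9, 10 and 12 read 378, 848, 614, 1113 and 903. Mice 15, 16, 17 and 18 read 2836, 2596, 1621 and 1615, all above the other 9. The labels do not say what the numbers stand for. Summed hepatocyte markers also differed between these ranges, with medians of 80820.2, 65042 and 55180.4 CPM in the 3 ranges, and summed Kupffer cell markers with medians of 195, 455 and 359. Their part in the Apoa4 difference was not tested.

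Every ANIT, MDA and TAA liver had more Apoa4 than the 9 Ctrl livers numbered up to 12. ANIT livers read 2472, 2046, 1836 and 2443 CPM, TAA livers 3365, 2782, 1929, 2447 and 1526, and MDA livers 1253, 2262 and 3057, all overlapping Ctrl mice 15 to 18. Against all Ctrl livers none was called: 1.04 ± 0.54 (adjusted p = 0.164) for ANIT, 1.07 ± 0.43 (adjusted p = 0.0627) for MDA and 1.22 ± 0.50 (adjusted p = 0.0502) for TAA. Against all 17 vehicle livers MDA (1.06 ± 0.40, adjusted p = 0.0391) and TAA (1.21 ± 0.45, adjusted p = 0.0290) were called higher and ANIT was not (1.04 ± 0.50, adjusted p = 0.126), and by library total none of the 3 was called (0.93, 1.11 and 0.74). With the range of mouse numbers as a covariate the differences were called, at 2.61 for ANIT (adjusted p = 0.00394), 1.69 for MDA (adjusted p = 0.00511) and 1.72 for TAA (adjusted p = 0.0113). Without Ctrl mice 15 to 18 they were called at 1.92, 1.92 and 2.10, and within mice 1 to 4 at 2.60, 2.55 and 3.13. Within mice numbered above 4, where the controls include mice 15 to 18 and no treated mouse of these groups is numbered above 12, the MDA and TAA differences were 0.79 and 0.55, neither called, and no ANIT mouse had such a number. For APAP the differences were 0.28 and 1.78, neither called.

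APAP livers split even further. APAP 8 and APAP 11 read 7971 and 5821 CPM, the highest of all 57 livers, while APAP 1, 2, 4 and 6 read 752, 124, 376 and 116. The mean difference of 1.29 ± 0.74 (adjusted p = 0.195) lay between these sets of values. GAL livers read 339.7, 313, 139 and 440.0, below both CIP livers at 946 and 1638 (-2.06 ± 0.42, adjusted p = 0.0158), a call lost without CIP 8 (-1.69) and by library total (-1.26). CCl4 livers had 364, 709 and 1073 (-0.80 ± 0.36, adjusted p = 0.125) and overlapped CIP. ConA livers had 1050.1, 1578 and 3413 against 1386 and 432 in CIV (1.22 ± 0.63, adjusted p = 0.156), and against all vehicle livers the difference was 1.01 ± 0.42 (adjusted p = 0.0335). Since Apoa4 and Apob are also gut genes, 5 enterocyte markers were summed: 30.4 to 103 CPM in vehicle livers, 27.0 to 88.9 in APAP and 48.6 to 72.7 in TAA, with 1 of the 5 at 0 in every vehicle liver. The vehicle sum was mostly Fabp2, at a mean of 48.6 CPM, and Lgals4, at 8.03. Vil1 averaged 0.278, Cdh17 0.0155 and Cdx2 0. With APAP against Ctrl, Lgals4 was called higher (1.30 ± 0.30) and Fabp2 was not called (-0.66 ± 0.30). Cdh17, too low to test, averaged 0.99 CPM with APAP and 0.62 with TAA.

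**Figure D4:**
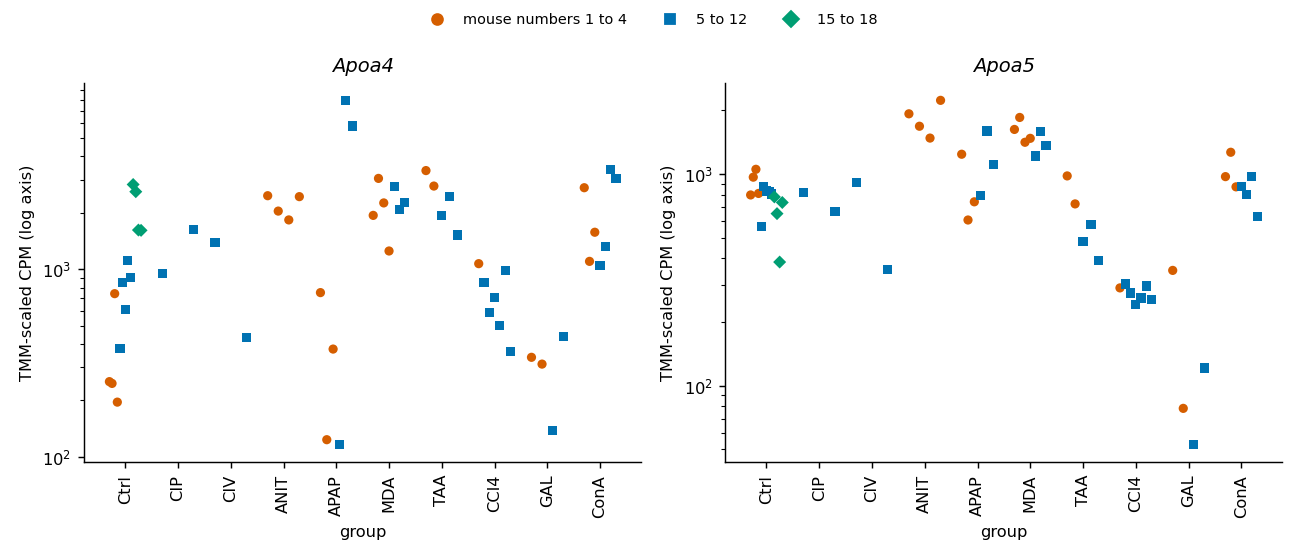
TMM-scaled CPM of Apoa4 (left) and Apoa5 (right) in each of the 57 livers by group, on log axes; marker and colour give the range of the mouse number. Apoa4 is highest among Ctrl livers in the mice numbered 15 to 18 and reaches 7971 in APAP 8, while for Apoa5 every ANIT and MDA liver lies above the highest Ctrl liver at 1054 CPM.

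Apoc3, which restrains triglyceride clearance, fell with APAP, CCl4 and GAL with TMM scaling. By library total the APAP call was lost (-0.23, adjusted p = 0.198), and MDA (-0.36, 0.0170), TAA (-0.32, 0.0354) and ConA against CIV (-1.03, 0.0263) were called lower beside CCl4 and GAL. Ctrl livers had 5799, 6950.4 and 10449 CPM and APAP livers 4125, 5498 and 6257, overlapping (-0.39 ± 0.14, adjusted p = 0.0412). That call was lost without APAP 2, 4 or 6 (-0.33 to -0.38). CCl4 livers had 1912, 2359 and 2684 and GAL livers read 2793, 2278, 1857 and 2239, all below both CIP livers at 6011 and 7154 and below every other vehicle liver. The differences were -1.46 ± 0.13 (adjusted p = 4.30e-05) and -1.52 ± 0.17 (adjusted p = 0.00314). ConA livers had 3770.1, 4299 and 5523, called lower against all vehicle livers (-0.54 ± 0.13, adjusted p = 0.000638) but not against CIV (-0.37 ± 0.28, adjusted p = 0.332). ANIT (-0.11), MDA (-0.29) and TAA (-0.28) were not called with TMM scaling, although without MDA 2 or TAA 1, the highest of their groups, the MDA and TAA differences were called at -0.38 and -0.55.

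Apob, the scaffold of very-low-density lipoprotein, rose with MDA and fell with GAL. Ctrl livers had 242, 333 and 811 CPM and MDA livers 336, 748 and 1038, with MDA 2 and 3 above the highest Ctrl liver (0.83 ± 0.24, adjusted p = 0.0106). Apob was also higher with MDA than with TAA, by 0.97 ± 0.34 (adjusted p = 0.0405). ANIT livers read 950.0, 455, 475 and 556 (0.65 ± 0.27, adjusted p = 0.0848). APAP livers had 196, 398 and 641 (0.07) and TAA livers read 541, 212, 289.8, 473 and 209 (-0.11), neither called. GAL livers read 96.4, 94.3, 144 and 134, below every vehicle liver, but the 2 CIP livers differed widely at 165 and 386. The GAL difference was -1.21 ± 0.35 (adjusted p = 0.0419) against CIP and -1.76 ± 0.39 (adjusted p = 0.000636) against all vehicle livers, and by library total -0.42, not called, and -0.86, called. Against CIP the call was lost without CIP 8 (-0.55) and without GAL 2, 4, 7 or 8 (-1.12 to -1.32). CCl4 livers had 181, 225 and 589.9 (0.16 ± 0.51, adjusted p = 0.832), within the vehicle range, and ConA livers 209, 603 and 849, higher against all vehicle livers (0.69 ± 0.28, adjusted p = 0.0318) and not called against CIV (0.32).

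Apoe, the remnant ligand and the most abundant member, fell with CCl4 under both scalings. It fell with GAL under TMM scaling and in DESeq2 but not by library total, and with ConA only by library total and against all vehicle livers. CIP livers read 19886 and 19421 CPM, CCl4 livers had 5119.9, 6178 and 7571 and GAL livers read 10568, 11586, 11945 and 10560.2. The differences were -1.62 ± 0.13 (adjusted p = 2.05e-05) with CCl4 and -0.82 ± 0.13 (adjusted p = 0.00734) with GAL, each without overlap with CIP. By library total they were -1.19, still called, and -0.06, not called. The CCl4 livers also lay below all 17 vehicle livers, whereas CIV 8 and Ctrl 17 read lower than every GAL liver. Ctrl livers had 10288, 20705 and 30527, and no gavage compound was called: ANIT 0.09, APAP -0.37, MDA -0.23 and TAA -0.10. In APAP the range of 9766 to 28214 was set at the top by APAP 1, and without that liver the difference was called at -0.66. With ConA and TMM scaling Apoe did not pass the test (0.36 ± 0.44, adjusted p = 0.552 against CIV, 0.05 ± 0.19, adjusted p = 0.823 against all vehicle livers). By library total the ConA differences were -0.36, not called, and -0.62, called lower (adjusted p = 0.00278).

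Apoc1, the neighbour of Apoe, fell with MDA, TAA, CCl4 and GAL with TMM scaling. Ctrl livers had 7593, 9555 and 15799 CPM, MDA livers 4876, 6435 and 10613 (-0.53 ± 0.17, adjusted p = 0.0188), and TAA livers read 11293, 6538, 5636, 5267 and 6343 (-0.49 ± 0.20, adjusted p = 0.0446). All but TAA 1 of the TAA livers lay below every Ctrl liver, and the TAA call was lost without TAA 3, 6, 7 or 8 (-0.41 to -0.46). CCl4 livers had 2364, 3362 and 4109 and GAL livers read 5609.9, 5700.5, 5170.1 and 5310.3, below CIP at 8777 and 10932. The differences were -1.53 ± 0.16 (adjusted p = 0.000101) and -0.85 ± 0.13 (adjusted p = 0.00632), the latter -0.08 by library total and not called. With APAP the difference was -0.53 ± 0.22 (adjusted p = 0.0733), and without APAP 1, at 13152 the highest of its group, it was called at -0.83. With TMM scaling ANIT was not called (-0.28), and ConA was called against all vehicle livers (-0.34 ± 0.15, adjusted p = 0.049973) but not against CIV. By library total ANIT (-0.47, adjusted p = 0.00440), APAP (-0.44, 0.0185) and ConA against CIV (-0.92, 0.0204) were called lower too.

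Apoh, the phospholipid-binding member, fell with APAP, TAA, CCl4 and GAL. Ctrl livers had 2082, 2539.7 and 4062 CPM. APAP livers had 1183, 1582 and 2753 and TAA livers read 3001, 1428, 1343, 1177 and 1525, so 5 of 6 APAP and 4 of 5 TAA livers lay below every Ctrl liver, the exceptions being APAP 1 and TAA 1. Differences were -0.58 ± 0.17 (adjusted p = 0.0150) and -0.56 ± 0.20 (adjusted p = 0.0233), the latter lost without TAA 3, 6, 7 or 8 (-0.47 to -0.52). CCl4 livers had 712, 886 and 1014 and GAL livers read 998, 979, 835 and 894, against 2306 and 2619.9 in CIP, with no overlap with any vehicle liver. The differences were -1.46 ± 0.12 (adjusted p = 2.36e-05) and -1.41 ± 0.14 (adjusted p = 0.00230). ANIT (0.16), MDA (-0.10) and ConA (-0.13) were not called with TMM scaling, and by library total ConA was (-0.80).

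TAA 1 and APAP 1 recur in these values. With TMM scaling TAA 1 was the highest TAA liver for all 10 genes, and for Apoa1 it read 28856 CPM against 16237 in the next. Its TMM factor was 0.733, against 0.957 to 1.14 in the other TAA livers. By library total TAA 1 was the highest for 7 of the 10, with Apoa1 at 21159.5 CPM against 18544 in the next. APAP 1, with a factor of 0.721, was the highest APAP liver for 6 genes with TMM scaling and 2 by library total, and MDA 2, with 0.616, the highest MDA liver for 9 and 0. Summed hepatocyte markers spanned 58754 to 91064 CPM in TAA livers and 56141 to 95168 in APAP livers. Without TAA 1, 6 members were called with TAA, 1 higher and 5 lower, in place of 4, where 50.9% of all genes were called. Leaving out TAA 3, 6, 7 or 8 left 1 call, the rise of Apoa1 (45.2% to 48.0% of all genes).

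The ranges of mouse numbers touched other calls against Ctrl. Without Ctrl mice 15 to 18, Apoa1 (0.35) and Apoc3 (-0.39) were no longer called with APAP, Apoa2 (-0.43) with MDA, and Apom with ANIT (-0.27) and TAA (-0.31). With the range as a covariate Apoa1 with APAP (0.39) and Apom with ANIT (-0.37) were not called, and Apoc1 was called lower with ANIT (-0.56) and APAP (-0.64). Within mice numbered above 4, Apoa1 (0.43) and Apoc3 (-0.21) with APAP and Apob with MDA (0.66) were not called, and Apoa5 was called higher with APAP (0.74). The rises of Apoa5 with ANIT and MDA were called in each of these fits that could be made.

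CCl4 and GAL were also compared directly, a contrast chosen after their values had been seen. Of the 10 genes 6 were called, where 42.5% of all genes were, also by library total. CCl4 livers had less Apoa2 (-0.93 ± 0.09, adjusted p = 1.66e-05), Apoe (-0.90 ± 0.11, 4.71e-05) and Apoc1 (-0.77 ± 0.12, 0.000377) than GAL livers, and each of these 3 pairs of groups did not overlap. They had more Apoa4 (1.19 ± 0.34, 0.0153), Apob (1.29 ± 0.35, 0.0105) and Apom (0.38 ± 0.13, 0.0352). Apoa1, Apoc3 and Apoh did not pass this test, with differences of -0.25 ± 0.14, -0.03 ± 0.12 and -0.14 ± 0.10, nor did Apoa5 at 0.82 ± 0.40. By library total Apoa1 and Apoh also became called, at -0.50 and -0.39, and Apom was no longer called (0.14). The called members went both ways, and 6 of 10 against 42.5% of all genes does not set the members apart.

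Hepatocyte markers fell in the same livers. Of 7 markers, 6 fell with CCl4 and 7 with GAL against CIP, with median log2 differences of -1.31 and -1.83, and differences for Alb, the albumin gene, of -1.10 ± 0.22 and -0.79 ± 0.20. Summed over the 7, levels were 26183 to 33456 CPM with CCl4 and 22856 to 31465 with GAL, against 54276 to 59230.5 in CIP. With ConA 1 marker rose and 1 fell, with TAA 4 fell, with ANIT 1 rose and 1 fell, with APAP 2 fell and with MDA 1 rose and 2 fell. Of all genes, 14% rose and 14.2% fell with ANIT, 17.3% and 14.6% with APAP and 17.4% and 16.4% with MDA. The shares were 26.4% and 24% with TAA, 18% and 15.6% with CCl4, 12.8% and 15.7% with GAL and 16.8% and 17.3% with ConA. Scaled by library total, the numbers rising and falling were 1 and 2 with ANIT, 1 and 2 with APAP, 0 and 3 with MDA, 0 and 4 with TAA, 0 and 5 with CCl4, 0 and 5 with GAL and 0 and 3 with ConA, and the medians were -0.87 with CCl4 and -1.07 with GAL. With TMM scaling Ttr, the transthyretin gene, fell with ANIT (-1.09), MDA (-1.03), TAA (-0.79), CCl4 (-1.44), GAL (-1.83) and ConA (-0.99). The urea cycle gene Cps1 fell with APAP (-1.46), MDA (-0.53), TAA (-0.91), CCl4 (-0.83) and GAL (-2.98). Ass1, of the same cycle, fell with APAP (-1.73), TAA (-1.49), CCl4 (-1.72) and GAL (-3.30). Of the monocyte and macrophage markers that could be tested, 5 to 7 of 7, the numbers rising and falling were 0 and 2 with ANIT, 6 and 0 with APAP, 2 and 0 with MDA, 4 and 0 with TAA, 3 and 0 with CCl4, 4 and 0 with GAL and 1 and 0 with ConA with TMM scaling. Scaled by library total, they were 0 and 2 with ANIT, 6 and 0 with APAP, 1 and 0 with MDA, 3 and 0 with TAA, 4 and 0 with CCl4, 7 and 0 with GAL and 0 and 0 with ConA. Under that scaling all genes rising and falling numbered 824 and 2651 of 14072 with ANIT and 2926 and 1115 of 13939 with APAP. They were 1559 and 1952 of 13522 with MDA and 3428 and 3018 of 14360 with TAA. The injected compounds had 4561 and 1097 of 15365 (CCl4), 5501 and 841 of 15509 (GAL) and 1100 and 3734 of 14132 (ConA). Summed over the 7, levels were 51.8 to 223 CPM with APAP and 61.6 to 113 with TAA against 20.6 to 117 in Ctrl, and 32.5 to 133 with CCl4 and 67.1 to 118 with GAL against 36.9 to 53.1 in CIP. Most of these sums was 1 gene, Spp1, at a mean of 41.9 CPM in Ctrl against 3.24 for Ly6c2, the next highest. With TMM scaling Spp1 was called higher with APAP (1.03) but not with TAA (0.66), CCl4 (0.56) or GAL (0.56). Kupffer cell markers summed to 28.3 to 58.7 CPM with ConA against 334 to 360.4 in CIV, and neutrophil markers to 126 to 287 and 159 to 826 with ConA and TAA against 2.11 to 62.2 in vehicle livers. Neutrophil sums were 14.7 to 47.5 with ANIT, 13.4 to 263 with APAP, 8.53 to 132 with MDA, 10.6 to 73.0 with CCl4 and 25.3 to 40.8 with GAL. The part of cell composition in the apolipoprotein differences was not tested.

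Ratios between 2 members inside one library do not depend on how libraries are scaled. Of 6 ratios tested for 7 compounds against all 17 vehicle livers, 22 of 42 tests were called by a two-sided exact permutation test with Benjamini-Hochberg adjustment over the 42. The ratio of Apoc3 to Apoa1, neighbours on chromosome 9, was lower with 6 of the 7 compounds. In vehicle livers its log2 value averaged -0.59, from -0.88 to -0.30. The difference was -1.02 with TAA (exact test, adjusted p = 0.000199), -1.02 with ConA (6.07e-05), -0.82 with APAP (0.000104) and -0.52 with MDA (6.07e-05). Every liver of these 4 groups lay below every vehicle liver. ANIT (-0.32, exact p adjusted to 0.00468) and GAL (-0.29, 0.00432) overlapped the vehicle range, and CCl4 did not pass (-0.06, 0.547).

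The ratio of Apoa5 to Apoa1 moved in both directions. It was higher with ANIT by 1.05 (exact permutation test, adjusted p = 0.000780) and with MDA by 0.77 (0.000104), and lower with TAA (-0.97, adjusted p = 0.000199) and GAL (-1.36, 0.00451). Every TAA liver, from -5.35 to -4.48, lay below the lowest vehicle liver at -4.22, although neither gene alone left its control range in every TAA liver. The ratio of Apoe to Apoa1 was lower with APAP (-0.84), TAA (-0.82), MDA (-0.44) and ConA (-0.44) and higher with GAL (0.55), with exact adjusted p from 0.000199 to 0.00197. With CCl4 these 3 ratios to Apoa1 differed by -0.06, 0.09 and -0.10 (exact adjusted p from 0.456 to 0.547), while Apob over Apoa1 was higher by 1.15 (0.00598). Apoa4 over Apoa1 was higher with CCl4 by 1.24 (exact test, adjusted p = 0.0318) and with MDA by 1.13 (0.0472).

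Within the Apoe and Apoc1 pair, the ratio of Apoc1 to Apoe was lower with ANIT (-0.42), MDA (-0.36), TAA (-0.43) and ConA (-0.42), with exact adjusted p from 0.0109 to 0.0472. It was not called with APAP (-0.24), CCl4 (0.01) or GAL (-0.11). Vehicle livers spanned -1.33 to -0.02 on the log2 scale, the top value being CIV 8. Leaving out CIV 8 left 22 of the 42 ratio tests called.

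**Figure D5:**
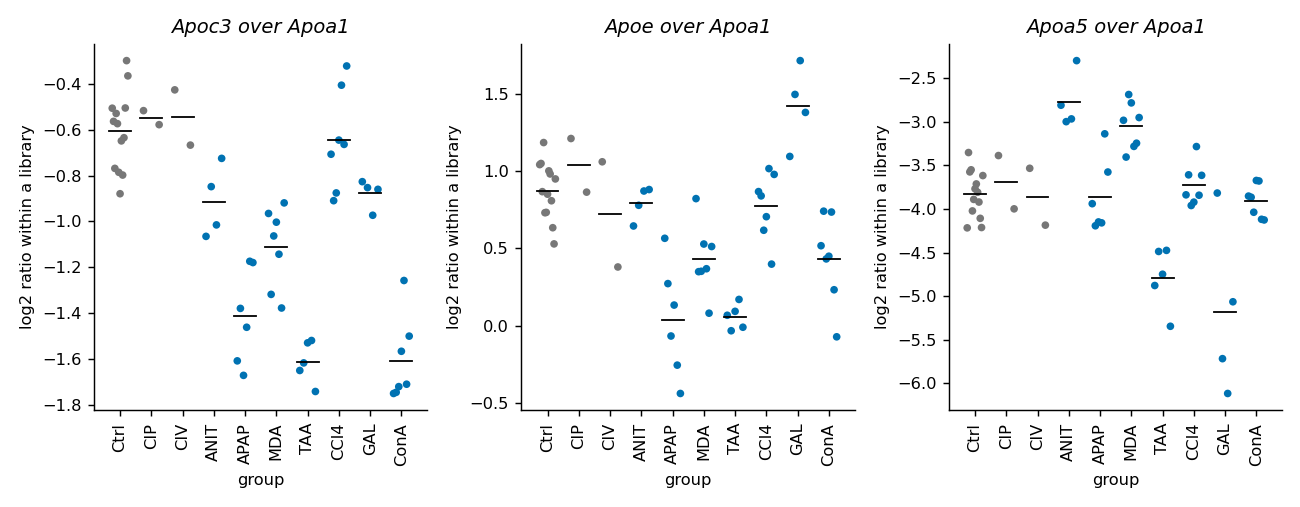
Log2 ratio of Apoc3, Apoe and Apoa5 to Apoa1 within each library, 1 point per liver, vehicle groups in grey, compounds in blue, with the group mean as a bar. For Apoc3 over Apoa1 all TAA livers lie at or below -1.52, under the lowest vehicle liver at -0.88, and for Apoa5 over Apoa1 the ANIT livers lie above the vehicle livers and the TAA livers below.

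Other proteins of the same particles were followed as lists. Against the route vehicle, 12.8% to 26.4% of all genes rose and 14.2% to 24% fell, depending on the compound, and the median gene differed by -0.01 to 0.10. List values are those with TMM scaling. Several counts change by library total, where the median gene was 0.84 higher with GAL, 0.53 higher with CCl4 and at -0.56 with ConA against the route vehicle, so counts under that scaling are given after each list. They are to be read against all genes rising and falling under it, 824 and 2651 of 14072 with ANIT and 2926 and 1115 of 13939 with APAP. MDA had 1559 and 1952 of 13522, TAA 3428 and 3018 of 14360 and CCl4 4561 and 1097 of 15365. GAL had 5501 and 841 of 15509 and ConA 1100 and 3734 of 14132. Of 14 further apolipoproteins and HDL-bound proteins, 13 could be tested, and with GAL 12 fell and none rose against CIP, with a median of -1.73. Among them Apon fell by 3.26 ± 0.73. With CCl4 3 rose and 5 fell, and Pon1, the HDL-bound enzyme paraoxonase, fell by 1.45 ± 0.18. Counts rising and falling were 5 and 1 with ANIT, 5 and 5 with APAP, 6 and 3 with MDA, 2 and 5 with TAA, and 5 and 1 with ConA. The largest rises were in the acute-phase serum amyloid A genes, which displace Apoa1 from HDL in inflammation: with ConA Saa3 rose by 7.60 ± 0.68 (adjusted p = 5.90e-05) and Saa2 by 6.14 ± 0.54. Saa2 rose by 4.12 ± 0.94 with ANIT and fell by 3.59 ± 0.55 with GAL. Saa1 and Saa2 are near-identical copies, so their separate values are uncertain. Apoc2, the activator of lipoprotein lipase, rose by 1.04 ± 0.21 with TAA. By library total the numbers rising and falling were 4 and 1 with ANIT, 6 and 3 with APAP, 5 and 3 with MDA, 2 and 6 with TAA, 5 and 5 with CCl4, 0 and 6 with GAL and 5 and 5 with ConA, with medians of -0.94 for GAL and -0.65 for ConA.

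Genes of particle assembly and secretion, 13 in all and all tested, fell with GAL in 8 cases and rose in none (median -0.96). P4hb, a subunit of the microsomal transfer complex, fell by 2.35 ± 0.17, and Tm6sf2, which helps load very-low-density lipoprotein, fell by 2.20 ± 0.37. With CCl4 4 fell and 2 rose, and Mttp, the transfer protein that lipidates Apob, fell by 0.73 ± 0.09. ANIT and MDA each had 5 higher and 2 lower, APAP 2 and 4, TAA 1 and 4, and ConA 1 and 5. Sort1, a sorting receptor for Apob, fell with ANIT (-1.39), MDA (-0.94), TAA (-1.68) and ConA (-2.51), and Dgat2, a triglyceride-synthesis enzyme, fell with all 4 gavage compounds (-0.57 to -1.08). Scaled by library total, the numbers rising and falling in this list were 0 and 2 with ANIT, 3 and 2 with APAP, 3 and 2 with MDA, 1 and 4 with TAA, 3 and 1 with CCl4, 2 and 2 with GAL and 0 and 5 with ConA, so that the rises with ANIT were lost and the balance with APAP and CCl4 turned, and the GAL median was -0.20.

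Of 8 genes of HDL formation and remodelling, 5 fell with CCl4, 4 with APAP, 3 each with ANIT, TAA and GAL, 2 with MDA and 1 with ConA, and 0 to 2 rose. Numbers rising and falling by library total were 0 and 3 with ANIT, 1 and 3 with APAP, 1 and 2 with MDA, 1 and 3 with TAA, 0 and 3 with CCl4, 2 and 0 with GAL and 1 and 4 with ConA, so no gene of this list fell with GAL under that scaling. Lipc, hepatic lipase, fell with 6 compounds, from -1.05 ± 0.39 with APAP to -1.47 ± 0.19 with MDA, and with ConA the difference was -0.36 ± 0.32, not called. Abca1, the cholesterol exporter that lipidates Apoa1, rose with ConA by 2.23 ± 0.38, with ANIT by 0.57 ± 0.17 and with TAA by 0.57 ± 0.17. Of 7 lipase genes and regulators, 1 to 3 fell with each compound and 0 to 2 rose. Lmf1, a factor that lipases need to fold, fell with 5 compounds, from -2.15 ± 0.25 with GAL to -0.41 ± 0.14 with ANIT, and Lipa, the lysosomal acid lipase, fell with 5, from -2.05 ± 0.24 with ConA to -0.51 ± 0.19 with APAP. Numbers rising and falling by library total were 0 and 2 with ANIT, 2 and 0 with APAP, 0 and 2 with MDA, 1 and 2 with TAA, 1 and 0 with CCl4, 2 and 1 with GAL and 1 and 5 with ConA, so that the falls with APAP and CCl4 were no longer called. Angptl4, an inhibitor of lipoprotein lipase, rose with APAP (2.06 ± 0.46), TAA (1.97 ± 0.35) and ConA (1.86 ± 0.30). Angptl8, an insulin-responsive regulator of lipase activity, fell with ANIT (-2.06 ± 0.49), MDA (-1.44 ± 0.37) and ConA (-2.11 ± 0.64).

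Of 9 receptor and uptake genes, 3 to 5 fell with each compound and 0 or 1 rose, with medians from -0.72 with GAL to -0.04 with ANIT. Numbers rising and falling by library total were 0 and 4 with ANIT, 0 and 3 with APAP, 1 and 3 with MDA, 1 and 4 with TAA, 1 and 2 with CCl4, 0 and 0 with GAL and 0 and 5 with ConA. Lrp1, the remnant receptor, fell with TAA (-0.98 ± 0.16), CCl4 (-1.16 ± 0.14) and GAL (-1.61 ± 0.43). Of 19 transcription factors of lipid metabolism, the numbers rising and falling were 5 and 5 with ANIT, 1 and 7 with APAP, 5 and 4 with MDA, 3 and 12 with TAA, 0 and 10 with CCl4, 0 and 7 with GAL and 3 and 7 with ConA with TMM scaling. Scaled by library total, they were 2 and 5 with ANIT, 2 and 3 with APAP, 3 and 3 with MDA, 3 and 11 with TAA, 0 and 6 with CCl4, 2 and 3 with GAL and 1 and 7 with ConA. With TMM scaling Srebf1, the lipogenic factor, fell with all 7 compounds (-1.56 to -3.79), as did Mlxipl, the carbohydrate-responsive factor (-1.34 to -2.48). Cebpa fell with 6, all but ConA (-0.69 to -1.92), and Nr1h3 with 5 (-0.55 to -0.98). Of 9 tested genes of the fasting response, the numbers rising and falling were 7 and 0 with ANIT, 2 and 3 with APAP, 4 and 0 with MDA, 6 and 0 with TAA, 2 and 5 with CCl4, 4 and 3 with GAL and 5 and 0 with ConA with TMM scaling, with medians of -0.36 for APAP, -0.98 for CCl4 and -0.36 for GAL and above 0 for the other 4. By library total these were 5 and 0 with ANIT, 3 and 2 with APAP, 3 and 0 with MDA, 6 and 0 with TAA, 2 and 4 with CCl4, 4 and 0 with GAL and 5 and 1 with ConA. With TMM scaling Cidec, a lipid-droplet protein, rose with all 7 (3.17 to 7.89) from under 1 CPM in the controls. Fgf21, the fasting hormone, rose by 7.17 ± 0.57 with ANIT and 5.31 ± 0.53 with MDA, the compounds with which Apoa5 rose, but also by 3.65 ± 0.46 with TAA.

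Genes most like each member were found as those with the smallest root mean square (RMS) difference of centred log2 profiles over the 57 livers, among 5901 genes of at least 10 CPM. These likenesses are descriptions over livers that share treatments and libraries. The nearest to Apoa5 were Gfra1 at 0.414 log2 units and Creb3l3, a liver membrane-bound transcription factor, at 0.462, against a spread of Apoa5 itself of 1.10. Creb3l3 rose with ANIT (0.98 ± 0.12) and MDA (0.64 ± 0.10) and fell with CCl4 (-0.77 ± 0.11) and GAL (-2.61 ± 0.62), as Apoa5 did, and also rose with APAP (0.34 ± 0.11) and ConA (0.88 ± 0.30), where Apoa5 was not called. Apoa4 had no close companion: its nearest, Apoc2, lay at 0.918 against a spread of 1.38, followed by Gpx3 at 1.01.

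For the other members the nearest genes were the following. Apoa1 was nearest to Serpina3k (0.293) and Serpina1b (0.320), Apoh to Azgp1 (0.187) and Serpina1d (0.189), and Apoe to F12, coagulation factor XII (0.219), and Serpina1d (0.291). The Serpina1 genes are near-identical copies whose counts are uncertain. Apoa2 and Apoc1 shared both companions, 1300017J02Rik (0.214 and 0.221) and Serpinf1 (0.226 and 0.227). Apoc3 was nearest to Stard10 (0.241) and Msra (0.25), Apom to Oaz1 (0.213) and Lamtor4 (0.224), and Apob to Man2a1 (0.473).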

How the data were processed

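RNA from 57 livers, each labelled as its own numbered mouse, was sequenced single-end after a stranded mRNA library. Deposited values are estimated counts per gene, per the submitters' processing notes from Salmon 1.6.0, R 4.1.3 and GRCm39, and they look corrected for length (Spearman rho -0.8237 between the smallest value above 0 and transcript length over 11520 single-transcript genes). Totals ranged from 13826343 to 35075809, which limits precision for low genes. Counts were rounded and tested with edgeR 4.0.16 (quasi-likelihood, TMM, filterByExpr) in R 4.3.3, each comparison on its own 2 groups, with Benjamini-Hochberg adjustment over all genes tested. SE is the log2 fold change divided by the root of F. Alternatives used DESeq2 1.42.0, limma 3.58.1 on log2(CPM + 1), other scalings, filters, a replicate block, and samples left out. Figures and ratio tests used Python 3.11.15, numpy 2.4.6 and pandas 2.3.3. The scripts were tested on simulated counts. No 2 columns were identical. Identifiers were matched to GENCODE M21, giving symbols for 51482 of 54307.

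The members and gene lists were chosen with earlier results of these data known. Named in the text are all 10 members, up to 2 called genes with the largest rise and 2 with the largest fall of each list, transcription factors called one way in 5 or more comparisons, and 2 nearest genes per member. A few genes that meet this rule are not reported here. The direct CCl4 and GAL comparison, and the fits without Ctrl mice 15 to 18, within mice 1 to 4 and without CIV 8, were chosen after seeing the data. Flow cytometry was not used here.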

Additional observations from a re-analysis of the deposited data

Results flagged for a closer look

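Single livers stood apart from their group by Dixon's test at the 95% level in 8 of 70 sets of TMM-scaled values (10 genes in 7 compound groups), where chance gives about 1 in 20. By library total 4 of the 70 did, none of them among these 8. TAA 1 was the highest of 5 for 6 genes: Apoa1 at 28856 CPM, Apoa2 at 22984, Apoc1 at 11293, Apoc3 at 9195, Apoe at 30239.9 and Apoh at 3000.6. These 6 values come from 1 library, whose TMM factor was 0.733 against 0.957 to 1.14 in the other TAA livers, and are not separate events. By library total Apoa1 in TAA 1 was 21159.5 CPM against 18544 in the next liver, and Apoa2 16854 against 14810.5. CCl4 10 was the lowest of 7 for Apoa2 at 4225 CPM, and MDA 2 the highest of 7 for Apom at 492.7, with a factor of 0.616.

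Differences between compounds that passed edgeR's quasi-likelihood test of the difference itself were the following log2 values. Apoa5 was higher with ANIT than with APAP (0.83) or TAA (1.51), and higher with MDA than with TAA (1.23). Apob was higher with MDA than with TAA (0.97). Between CCl4 and GAL, Apoa2 (-0.93), Apoc1 (-0.77) and Apoe (-0.90) were lower with CCl4, and Apoa4 (1.19), Apob (1.29) and Apom (0.38) higher, a comparison chosen after seeing the data.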

How the results depend on the processing

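Of the values called against a vehicle, all 74 kept direction and call with DESeq2, 69 of 74 with RLE scaling and 61 of 74 without the low-count filter, and 193 of 233 when 1 mouse was left out. By library total 60 of 80 did and 2 reversed, the 6 calls between CCl4 and GAL included, by library total without mitochondrial genes 56 of 74 did and 4 reversed, with a replicate block 15 of 25 did, and within mice 1 to 4, where few livers were tested, 2 of 15. Depth and 2 route controls limit the injected groups, and 9 Ctrl mice numbered up to 12 differ from the other 4 in Apoa4. Scaling changed several counts. By library total, members called numbered 3 for GAL against CIP (3 also without mitochondrial genes), 6 for GAL against all vehicle livers (6), and 5 for ConA against CIV (3), all lower. In these comparisons 40.9%, 66.2% and 34.2% of all genes were called by library total, and 46.1%, 67.9% and 36.4% without mitochondrial genes. Among the gavage compounds 3 members were called by library total (26.2% of genes) and 3 by DESeq2 (36.1%). The sign of some differences reversed. For GAL against CIP by library total without mitochondrial genes, Apoa2 was at 0.0046, Apoc1 at 0.062 and Apoe at 0.082, and for GAL against all vehicle livers Apoe was at 0.0058 by library total and 0.037 without mitochondrial genes. For ConA against all vehicle livers Apoa1 was at -0.15 by library total, and Apoe at -0.62 by library total and -0.42 without mitochondrial genes, both called lower.

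For ANIT against Ctrl 1 member was called with RLE scaling (28.1% of all genes called), 4 by library total without mitochondrial genes (26.5%), 1 without the filter (14.4%) and 1 at an absolute log2 change of at least 1. Against all vehicle livers 1 was called with ANIT under RLE scaling (28.0%) and 1 without the filter (14.7%), and 3 with MDA without the filter (19.5%). For APAP against Ctrl 3 were called without the filter (18.0%), 3 without Ctrl mice 15 to 18 (29.7%), 0 at an absolute log2 change of at least 1 and 0 within mice 1 to 4 (6.28%). For MDA 0 reached an absolute log2 change of at least 1 and 2 were called within mice 1 to 4 (10.4%), and for TAA 0 and 1 (19.4%), where fewer livers were tested. The cause of the other changes was not tested. The share of all genes at an absolute log2 change of at least 1 was not counted.

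Leaving out 1 mouse gave 1 to 2 calls for ANIT (17.5% to 27.4% of all genes called), 3 to 6 for APAP (27.2% to 32.4%), 3 to 6 for MDA (28.8% to 34.8%), 1 to 6 for TAA (45.2% to 50.9%), 8 for CCl4 (18.0% to 36.2%), 7 to 9 for GAL (9.49% to 42.5%) and 1 for ConA against CIV (23.9% to 36.1%). With the replicate number as a block, 2 members were called with ANIT (both higher, where 6.84% of all genes were called), 0 with APAP (1.66%), 3 with MDA (19.2%), 4 with TAA (33.9%) and 9 with GAL (25.7%). The numbers were not taken to pair the livers: in no comparison with 3 or more pairs did every pair's deviations correlate above 0.1, and of the livers with a shared number, 3 of 8 correlated best with their own number for ANIT, 1 of 8 for APAP, 1 of 14 for MDA and 4 of 8 for TAA. With fewer pairs, this held for 4 of 4 livers in the 2 pairs of GAL and CIP, 2 of 2 in the 1 pair of ConA and CIV and 0 of 2 in that of CCl4 and CIP. CCl4 and ConA share only 1 number with their controls, so no block could be fitted. Of the 42 ratio tests, 22 were called, also without CIV 8 and with 1 added to the values, and 24 with Ctrl livers alone as controls of the gavage compounds.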
